A study of Mus musculus with 17 samples.

Results

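The 10 immediate early genes Fos, Fosb, Junb, Egr1, Arc, Npas4, Nr4a1, Nr4a2, Nr4a3 and Dusp1 were read by symbol from a nuclear count matrix of 26131 genes, and all 10 were present. They were named as a set, with earlier results of these data known. The matrix holds 284074 nuclei of 17 libraries, 1 library per sample, from the posterior brain of female mice homozygous for a human transferrin receptor knock-in (hTfR KI HOM), 2.3 months old in every group. The receptor (TfR) carries iron-loaded transferrin across brain capillaries, and the knock-in lets carriers that bind the human protein use it. The mice received 4 weekly intravenous doses, and the brains were taken and frozen 72 h after the last. The groups were saline (4 libraries), a free antisense oligonucleotide against the nuclear RNA Malat1 (Malat1 ASO, 2 mg per kg, matched on oligonucleotide, 4 libraries), an antibody to the receptor carrying a Malat1 ASO (anti-TfR:Malat1, 50 mg per kg, 6 libraries) and an oligonucleotide transport vehicle, a receptor-binding Fc protein, carrying a Malat1 ASO (OTV:Malat1, 50 mg per kg, 3 libraries). The knock-in is shared by all groups, saline included. The labels do not say whether each library came from 1 mouse, so p-values measure the spread between these libraries.

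Immediate early genes are transcribed within minutes of a signal, without the need for new protein. In neurons, calcium entry and cAMP act through kinases on factors already bound to the promoters, CREB and SRF among them, and the transcripts then decay quickly, so the RNA of these genes is widely used as a mark of recent neuronal activity. Tissue handling and cell stress also raise some of them. Fos, Fosb and Junb encode subunits of the AP-1 factor, Egr1 a zinc-finger factor, and Npas4 a basic helix-loop-helix factor that responds to calcium. Arc encodes a postsynaptic protein that takes part in the removal of AMPA receptors. Nr4a1, Nr4a2 and Nr4a3 are orphan nuclear receptors, and Dusp1 is a phosphatase that switches off MAP kinases.

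The promoter sequence of 8 of the 10 genes was searched, from a table of RefSeq on GRCm38.p6. Neither Arc nor Egr1 was part of this search, so the counts below leave both out. The table holds 1 start per gene, which for Nr4a1, Npas4, Nr4a3 and Fosb lies within the annotated gene. The whole window lies within the gene for Nr4a1 and Npas4, and a part of it for Nr4a3 and Fosb. Within the 250 bases before that start, the letters TGACG, the core of the CREB-binding cAMP response element, occurred on either strand in 8 of the 8 windows, and in 17.8% of the 32851 promoter windows of that length in the table. There were 4 such matches each in Nr4a1, Nr4a2 and Nr4a3, 3 in Dusp1, 2 each in Fos and Npas4, and 1 each in Fosb and Junb. The full palindrome TGACGTCA, which contains the shorter motif on both strands, was found only in Dusp1 among the 8, at bases -143 to -136 from the start, against 1.55% of all windows. Searched in the same way, TGANTCA (the AP-1 element) was in 0 of the 8 and 6.75% of all windows, and the CArG box of SRF in 0 and 1.47%. TATAAA was in Fos at -33 to -28 and in Nr4a2 at -164 to -159, against 12.4% of all windows. A match is only an occurrence of the letters. Bases beyond these 250, and the promoters of Arc and Egr1, were not searched, so 0 does not mean that a gene lacks the element. The windows of Fos (chr12:85473640-85473889, plus strand), Junb (chr8:84978749-84978998, minus strand), Nr4a2 (chr2:57124004-57124253, minus strand) and Dusp1 (chr17:26508473-26508722, minus strand) are shown 5′ to 3′, ending at the base before the start. They stand for the AP-1 genes, the nuclear receptors and the phosphatase, whose levels are compared across libraries further on. Capitals mark TGACG or its reverse complement CGTCA.
Fos: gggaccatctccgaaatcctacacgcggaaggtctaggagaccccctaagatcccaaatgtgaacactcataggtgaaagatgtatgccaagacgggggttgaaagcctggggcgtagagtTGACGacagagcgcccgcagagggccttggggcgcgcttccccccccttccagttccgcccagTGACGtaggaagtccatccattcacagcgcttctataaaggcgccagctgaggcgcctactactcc
Junb: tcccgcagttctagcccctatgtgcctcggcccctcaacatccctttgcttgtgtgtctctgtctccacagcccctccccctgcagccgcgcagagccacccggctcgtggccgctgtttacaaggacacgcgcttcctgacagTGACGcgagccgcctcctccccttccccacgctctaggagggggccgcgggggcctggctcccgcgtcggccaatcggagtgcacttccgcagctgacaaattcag
Nr4a2: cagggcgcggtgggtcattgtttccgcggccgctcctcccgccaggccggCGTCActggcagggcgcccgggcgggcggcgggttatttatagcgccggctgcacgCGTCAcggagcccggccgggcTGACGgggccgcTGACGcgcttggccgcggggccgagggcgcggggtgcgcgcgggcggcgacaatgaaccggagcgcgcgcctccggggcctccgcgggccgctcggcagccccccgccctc
Dusp1: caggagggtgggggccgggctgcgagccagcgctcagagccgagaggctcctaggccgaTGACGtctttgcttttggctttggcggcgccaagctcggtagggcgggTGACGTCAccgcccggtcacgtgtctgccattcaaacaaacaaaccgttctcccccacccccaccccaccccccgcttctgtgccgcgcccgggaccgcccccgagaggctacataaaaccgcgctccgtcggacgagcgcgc

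Libraries held 13841 to 18365 nuclei and 55393588 to 79866411 UMIs (unique molecular identifiers, each standing for 1 captured RNA), and the median nucleus of a library had 2894 to 4052. Levels are given as CPM, the count of a gene per 1000000 UMIs of the same nuclei. They are not divided by gene length, so levels are compared between libraries and cell types and not between genes. Malat1, the target of the oligonucleotide, took 4.00% ± 0.57 of all UMIs under OTV:Malat1 (SD, n = 3), 5.92% ± 1.00 under anti-TfR:Malat1 (n = 6), 6.55% ± 1.35 under Malat1 ASO (n = 4) and 6.85% ± 1.56 under saline (n = 4). Its fitted log2 difference from saline was -0.84 under OTV:Malat1 (SE 0.20, edgeR quasi-likelihood unadjusted p = 0.000457, adjusted p = 1.00). The library labelled Malat1 ASO replicate 1 stood apart, with Xist at 0.589 CPM against 913 to 1301 CPM in the other 16. Genes of the Y chromosome were at 0.267 CPM or less in all 17, and the spread, the correlations, the likeness ranking and the shares of neurons are also given without it. Of all nuclei, 20326 (7.16%) carried a barcode that also occurs in another library, and the authors called 47758 (16.8%) doublets, which were kept. In these sums over all nuclei, a lower level in each nucleus cannot be told from fewer nuclei that express the gene.

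The spread between libraries of the same group was wider for some of the 10 genes than for others, with a highest-to-lowest ratio within groups of 3.00 to 6.93 for Nr4a3 and 1.62 to 2.05 for Egr1. Fos, the classical AP-1 partner of Jun proteins, stood at 10.6, 24.9, 22.1 and 12.9 CPM in saline replicates 1 to 4 and at 26.7, 15.8, 6.75 and 16.4 CPM in the 4 Malat1 ASO libraries. Under OTV:Malat1 it was at 8.86, 27.3 and 14.4 CPM, and under anti-TfR:Malat1 it ranged from 9.99 to 17.7 CPM with a median of 15.7. Every treated group thus overlapped saline, and the highest and the lowest libraries of the series both came from treated mice. Junb, another AP-1 subunit, stood at 17.2, 42.5, 57.6 and 26.0 CPM in saline, 44.9, 26.8, 21.4 and 29.4 under Malat1 ASO, and 21.0, 46.0 and 22.9 under OTV:Malat1. The 6 anti-TfR:Malat1 libraries lay between 19.3 and 33.7 CPM for Junb, with a median of 28.7. The libraries with the most Fos (saline replicates 2 and 3, Malat1 ASO replicate 1 and OTV:Malat1 replicate 2) were also the 4 with the most Junb. Fosb, which shares the AP-1 partners of Fos, ranged from 1.64 CPM in Malat1 ASO replicate 3 to 10.6 in Malat1 ASO replicate 1, so that both ends of its range lay within a single group.

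Egr1 ranged from 22.6 to 46.8 CPM, the narrowest relative range of the 10 genes, with a highest-to-lowest ratio of 2.07. Its group means ran from 34.8 ± 7.99 CPM under anti-TfR:Malat1 (SD, n = 6) to 37.3 ± 8.62 under Malat1 ASO (n = 4), closer together than the libraries within any group. Npas4 ranged from 8.45 CPM in anti-TfR:Malat1 replicate 2 to 25.8 in Malat1 ASO replicate 1. Arc stood at 18.2, 40.3, 35.6 and 24.3 CPM in saline and at 23.2, 33.8 and 25.6 CPM under OTV:Malat1, while the anti-TfR:Malat1 libraries ran from 14.1 to 28.6 with a median of 23.0. Dusp1 ranged from 3.99 CPM in Malat1 ASO replicate 3 to 12.97 in saline replicate 2.

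The nuclear receptors included the gene with the widest relative range of the 10. Nr4a3 stood at 39.9, 32.8, 8.06 and 55.8 CPM in saline replicates 1 to 4, at 40.3, 20.8, 6.96 and 36.9 CPM under Malat1 ASO, and at 7.72, 23.2 and 23.1 CPM under OTV:Malat1. Under anti-TfR:Malat1 its range was 7.82 to 39.2 CPM with a median of 29.2. Each group contained exactly 1 library under 10 CPM (saline replicate 3, Malat1 ASO replicate 3, anti-TfR:Malat1 replicate 6 and OTV:Malat1 replicate 1), and the other 13 libraries were at 20.7 CPM or more. Those 4 libraries came from batches 3, 3, 4 and 2 of the 4 batches named in the deposited metadata. Nr4a2 ranged from 7.69 CPM in anti-TfR:Malat1 replicate 6 to 43.1 in Malat1 ASO replicate 1, and Nr4a1 from 27.2 in Malat1 ASO replicate 3 to 70.5 in Malat1 ASO replicate 1. All 10 genes were above their median over the 17 libraries in saline replicate 2 and in Malat1 ASO replicate 1, and none was in Malat1 ASO replicate 3 or OTV:Malat1 replicate 1.

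**Figure D1:**
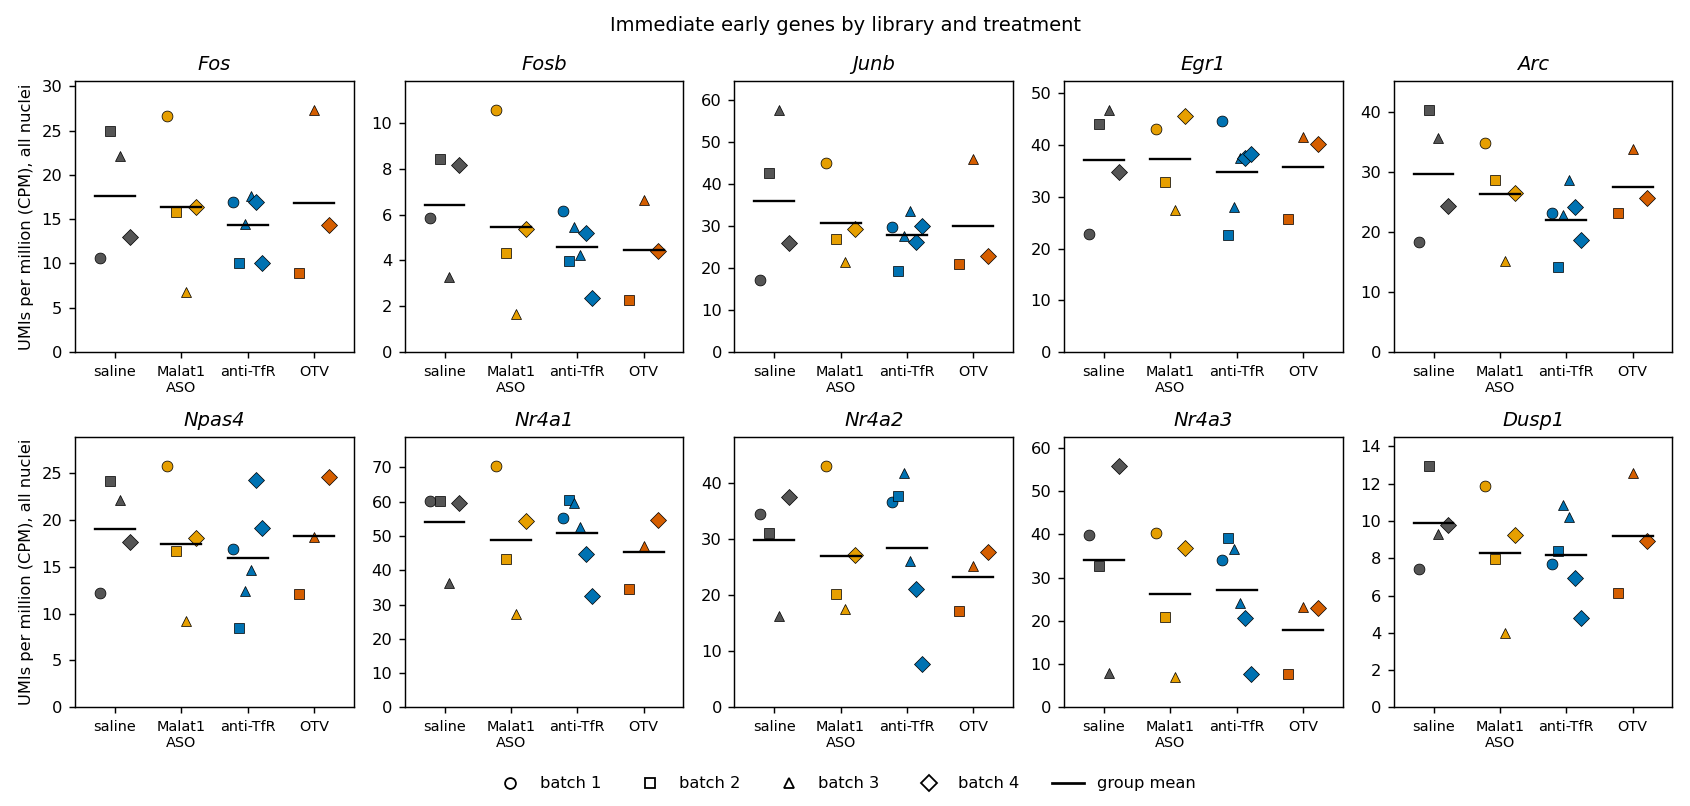
Level of each gene (CPM over all nuclei, linear axis from 0) in each of the 17 libraries by treatment; marker shape gives the deposited batch, and the horizontal line is the group mean. Groups overlap for every gene, and for Nr4a3 each group has 1 library at 6.96 to 8.06 CPM, below all others.

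The highest-to-lowest ratio over the 17 libraries was 8.02 for Nr4a3, 6.46 for Fosb, 5.60 for Nr4a2, 4.05 for Fos, 3.34 for Junb, 3.25 for Dusp1, 3.05 for Npas4, 2.86 for Arc, 2.59 for Nr4a1 and 2.07 for Egr1. Without Malat1 ASO replicate 1 it was 5.15 for Fosb, 5.44 for Nr4a2, 2.90 for Npas4 and 2.22 for Nr4a1. The spread was then set beside that of other genes, as the standard deviation of log2(CPM + 1) within groups over the 11970 genes with a mean of at least 5 CPM, whose median was 0.142. Nr4a3 came 4th from the top with 0.978, behind Xist, the predicted gene Gm47283 and Tsix, the antisense partner of Xist. Nr4a2 came 17th, Fosb 26th, Fos 27th, Junb 62nd and Npas4 72nd, while Dusp1, Arc, Nr4a1 and Egr1 took places 186, 239, 272 and 372. Without Malat1 ASO replicate 1, among 11951 genes, Nr4a3 came 2nd, Nr4a2 15th, Fos 30th, Fosb 47th, Junb 81st and Npas4 109th, with Arc, Egr1, Dusp1 and Nr4a1 in places 286, 358, 266 and 443. In neurons alone Nr4a3 came 4th (2nd without that library), with a range of 7.76 to 63.0 CPM. With each of the 11 neuron clusters given the same weight in each library, sparse clusters included, the highest-to-lowest ratio was 8.60 for Nr4a3, 4.95 for Fos and 2.60 for Egr1. The part of cluster proportions in the spread was not tested further.

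The design sets each treatment against saline and the carriers against each other. None of the 10 passed the threshold (adjusted p under 0.05, edgeR quasi-likelihood test) in any of the 4 comparisons over all nuclei, where 0.0% of the 21375 genes tested passed in each (OTV:Malat1, anti-TfR:Malat1 and Malat1 ASO, each against saline, and the 2 carriers against each other). At an unadjusted p under 0.05 there were 237, 258, 129 and 345 genes in these comparisons in that order, with 0 of the 10 among them. DESeq2 called 1 gene in OTV:Malat1 against saline, which is neither Malat1 nor a gene of the lists used here, and none in the others, with 245, 246, 97 and 337 genes at an unadjusted p under 0.05, and none of the 10 among its calls.

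Under OTV:Malat1 the fitted difference from saline was below 0 for all 10 genes, with a median log2 difference of -0.25, beside -0.001 for all genes tested. The 10 genes are measured in the same 7 libraries and move together, so this count is not 10 separate observations. With each library left out in turn, the estimates of Fos, Npas4, Egr1 and Dusp1 reached 0.14, 0.09, 0.05 and 0.03. Nr4a3 had the lowest estimate, -1.01 (SE 0.62, 95% interval -2.34 to 0.33, edgeR unadjusted p = 0.122), an interval of 0.197-fold to 1.26-fold. No OTV:Malat1 library came from batch 1, and this fit held no batch term. Batch 1 had the highest mean of Nr4a3, 38.1 CPM beside 19.8 to 28.9 in the others. Nr4a3 was not called with batch as a block either, and the part of batch in its estimate was not tested. Fosb was at -0.62 (SE 0.46) and Nr4a2 at -0.43 (SE 0.42), while Fos was at -0.15 (SE 0.39) and Egr1 at -0.13 (SE 0.24). For Fos the interval of -0.99 to 0.68 covers anything from a level of 0.504-fold to 1.60-fold, so the data neither show a difference nor set a narrow limit on one. Egr1, the least variable, was limited to between 0.636-fold and 1.32-fold of saline.

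Under anti-TfR:Malat1 the estimates were again below 0 for 10 of the 10 genes, with a median of -0.25 beside -0.003 for all genes, against the same saline libraries. With batch as a block Nr4a1 and Nr4a2 were at 0.011, and with each library left out in turn the estimates of Egr1, Nr4a1, Nr4a2 and Nr4a3 reached 0.062, 0.055, 0.17 and 0.069. With replicate number as a block, Nr4a1, Nr4a2 and Nr4a3 also came out above 0. Arc came nearest to the threshold, at -0.40 (SE 0.22, 95% interval -0.88 to 0.08, edgeR unadjusted p = 0.0867, adjusted p = 1.00). Arc was lower than the saline library of its own batch in 5 of the 6 anti-TfR:Malat1 libraries. Nr4a1 and Nr4a2 were at -0.05 and -0.03. Under Malat1 ASO 9 of the 10 estimates were below 0, from -0.39 for Nr4a3 to 0.01 for Egr1, with a median of -0.16 beside -0.007 for all genes. With each library left out in turn, 7 of the 9 reached values above 0, from 0.0037 for Nr4a2 to 0.14 for Fos, and Dusp1 and Nr4a3 did not. For OTV:Malat1 set against the other carrier, 6 of 10 were below 0, with a median of -0.03 beside 0.008 for all genes, Nr4a3 at -0.71 (SE 0.58, 95% interval -1.96 to 0.54) and Arc at 0.22 (SE 0.24).

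**Figure D2:**
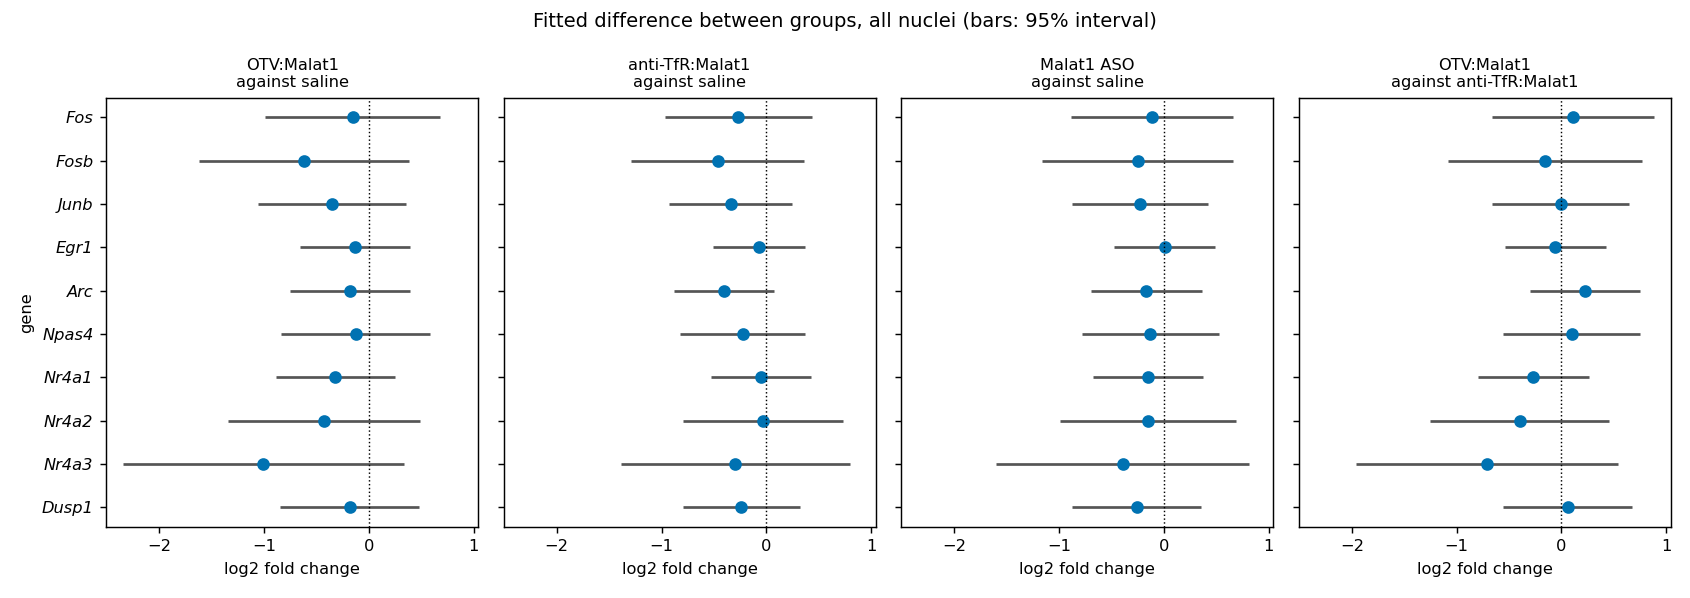
Fitted log2 difference of each gene in the 4 comparisons over all nuclei (points), with 95% intervals (bars) from the edgeR fit; the dotted line is no difference. Every interval crosses 0, and the widest is that of Nr4a3.

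Set against the saline library of the same batch, directions were mixed. Nr4a3 was lower in 2 of 3 OTV:Malat1 libraries, with log2 ratios from -1.95 to 1.42, and in 3 of 6 anti-TfR:Malat1 libraries, from -2.69 to 2.06. Junb was lower in 3 of 3 OTV:Malat1 libraries (-0.98 to -0.18) but in 3 of 6 under anti-TfR:Malat1 (-1.10 to 0.75). Fos was lower in 1 of 3 under OTV:Malat1 and 4 of 6 under anti-TfR:Malat1. Each batch held 1 saline library, so these ratios carry that library's own deviation.

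Across the 4 deposited batches, in a model that also holds treatment, 4644 of 21375 genes passed the threshold (21.7%) and 0 of the 10 immediate early genes did. Npas4 came nearest, with an adjusted p of 0.339 (edgeR F test), and Arc was farthest at 0.930. Batch means of Nr4a3 were 38.1 ± 3.45 CPM (SD, n = 3), 25.1 ± 13.9 (n = 4), 19.8 ± 12.4 (n = 5) and 28.9 ± 18.3 (n = 5) for batches 1 to 4, and those of Fos were 18.1 ± 8.10, 14.9 ± 7.34, 17.7 ± 7.79 and 14.1 ± 2.82. Libraries of 1 batch lay close together for Nr4a3 in batch 1 and for Fos in batch 4, and far apart in the other batches. Among related genes, 2 of 25 other rapid response genes passed the batch test (Ier5 and Jund), 4 of 20 delayed response genes (Inhba, Scg2, Sstr2 and Vgf), 3 of 20 upstream kinases and factors (Elk3, Creb1 and Rps6ka5) and 3 of 10 handling and heat stress genes (Socs3, Hspa1b and Ier3). Malat1 passed the batch test as well. In the treatment comparisons 0 genes of these 4 lists were called higher and 0 lower. Of the 25 other rapid response genes, 22 were below 0 under OTV:Malat1 (median -0.19), 19 under anti-TfR:Malat1 (-0.12) and 23 under Malat1 ASO (-0.15), against the same saline libraries. In the same order, 15, 14 and 16 of the 20 delayed response genes were below 0. So were 16, 5 and 9 of the 20 upstream kinases and factors, and 4, 7 and 8 of the 10 handling and heat stress genes. Fbxo33 and Per1, the rapid response genes with the highest mean counts, had log2 differences of -0.02 and -0.47 under OTV:Malat1. Their delayed counterparts Sorcs3 and Homer1 were at -0.08 and -0.59 (SE 0.33), and the upstream factor Mef2c and the kinase Camk2a at 0.01 and -0.12. The heat shock chaperones Hsp90aa1 and Hspa8 were at 0.13 and 0.25.

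The 10 genes did not vary as a single set across libraries. Among all 45 pairs, 25 had a Pearson correlation of log2(CPM + 1) over the 17 libraries that passed a permutation test with Benjamini-Hochberg adjustment over the 45. From the matrix of correlations, Fos, Junb, Egr1, Arc and Npas4 were taken as a first set and Nr4a1, Nr4a2 and Nr4a3 as a second; the sets were chosen after the correlations were seen, so their separation is a description. The 10 pairs within the first set had r from 0.636 to 0.894 (Spearman rho 0.598 to 0.821), and the 3 pairs within the second had r from 0.878 to 0.948 (rho 0.892 to 0.936). All 13 passed. The 15 pairs of one gene from each set had r from -0.090 to 0.471, and 0 of them passed, with a lowest adjusted p of 0.0940. Without saline replicate 3, or without anti-TfR:Malat1 replicate 2, 1 of the 15 passed.

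Single pairs show the sizes involved. Fos and Arc correlated at r = 0.894 and rho = 0.819 (2-sided permutation p = 1e-05 for r, the smallest the 100000 permutations can give; adjusted p = 0.000112), and Fos and Junb at r = 0.838 and rho = 0.821 (adjusted p = 0.000193 for r). Nr4a1 and Nr4a3 correlated at r = 0.948 and rho = 0.892. For Fos with Nr4a3, r was 0.355 and rho 0.248 (permutation p = 0.160 and 0.335, adjusted p = 0.229 and 0.472), and with the 2 libraries farthest in Fos left out r was -0.043. Saline replicate 3 and saline replicate 4 illustrate it, since the first had 22.1 CPM of Fos and 8.06 of Nr4a3 and the second 12.9 and 55.8, a ratio of Nr4a3 to Fos of 0.364 against 4.32.

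**Figure D3:**
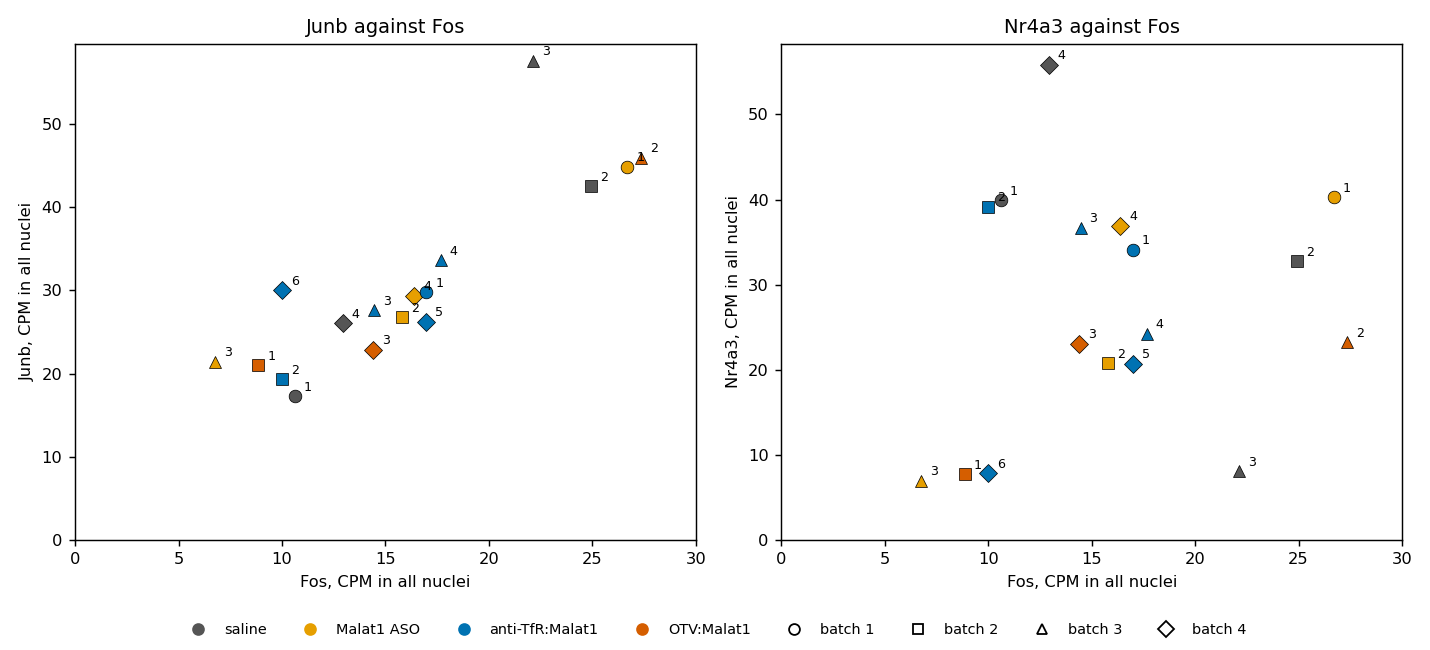
Junb (left) and Nr4a3 (right) against Fos, all in CPM over all nuclei on linear axes; each point is a library, coloured by treatment, shaped by batch and numbered by replicate. Junb rises along with Fos (r = 0.838), while libraries of similar Fos differ widely in Nr4a3 (r = 0.355).

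Fosb and Dusp1 correlated with genes of both sets. Fosb was at r = 0.713 with Fos, 0.870 with Nr4a1 and 0.850 with Nr4a3, but at 0.353 with Junb, its dimer partner. Without Malat1 ASO replicate 1 these were 0.655, 0.849, 0.862 and 0.238. Dusp1 was at 0.828 with Fos, 0.727 with Arc, 0.758 with Nr4a1 and 0.809 with Fosb.

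**Figure D4:**
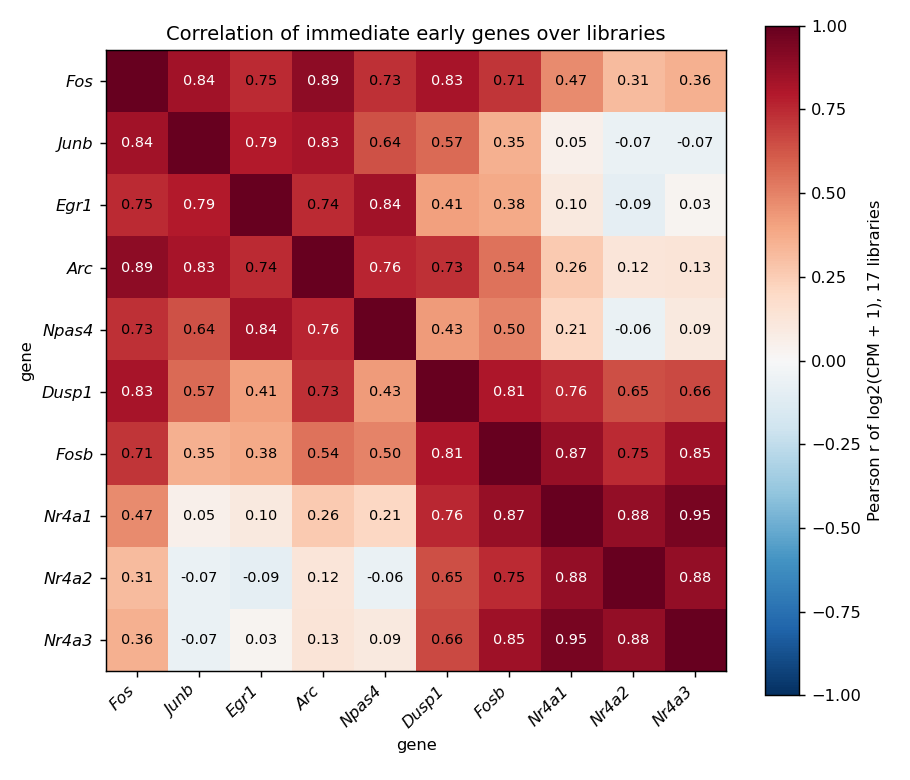
Pearson r of log2(CPM + 1) over the 17 libraries for each pair of genes (colour scale from -1 to 1, values printed in the cells). Fos, Junb, Egr1, Arc and Npas4 form a block of high values at the top left and Nr4a1, Nr4a2 and Nr4a3 another at the bottom right, with values of -0.090 to 0.471 between them.

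The ranges of r were also taken with batch, treatment and single libraries taken out. The sets were chosen on these same libraries, so the ranges describe the split and do not test it. With deviations from the batch mean, r was 0.824 to 0.929 within the first set, 0.889 to 0.940 within the second and -0.076 to 0.513 between them. With deviations from the treatment group's mean, these ranges were 0.627 to 0.920, 0.881 to 0.950 and -0.105 to 0.478. No batch holds the 6 libraries that an r within it would need. Without Malat1 ASO replicate 1, the ranges were 0.590 to 0.884, 0.864 to 0.955 and -0.192 to 0.387, and in neurons alone 0.697 to 0.907, 0.875 to 0.947 and -0.123 to 0.440. Because 4 libraries stood apart in Nr4a3, r was also taken over the other 13, where it was 0.801 to 0.912 among Nr4a1, Nr4a2 and Nr4a3 and -0.303 to 0.021 between the sets. Likewise, 4 libraries lay at 22.1 CPM of Fos or more, and over the 13 below them r within the first set was 0.508 to 0.799. Over 40 relations of the 10 genes with the Malat1 share, the median UMIs per nucleus, the share of doublets and the share of neurons, the lowest adjusted p was 0.494. Pearson r ran from -0.25 to 0.16 with Malat1, from -0.57 to 0.11 with the median UMIs (lowest unadjusted permutation p = 0.0159), from -0.53 to -0.04 with the share of doublets and from -0.46 to -0.06 with the share of neurons. Both shares thus had r below 0 with all 10 genes, and their part in the levels was not tested.

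Other genes were ranked in the same way. By mean r with the 10 genes over the 17 libraries, among 16084 genes with a mean of at least 1 CPM, the nearest were Btg2 (0.698), an antiproliferative gene, Trib1 (0.683), a pseudokinase, Egr2 (0.673), a relative of Egr1, Cx3cl1 (0.669), a neuronal chemokine, Coq10b (0.668) and Ccn1 (0.664), a matrix protein. A mean r over 0.5 was reached by 111 genes, 0.690% of those ranked, by 15 of the 20 other rapid response genes ranked (median 0.561), by 1 of 20 delayed response genes, by 0 of 20 upstream kinases and factors and by 1 of 6 handling and heat stress genes. With deviations from the batch mean the first count was 341 in place of 111. Without Malat1 ASO replicate 1 it was 51, and the same 6 genes held the first 6 places. Rankings on single genes were added after the correlations were seen. To Fos alone the nearest genes were Btg2 (r = 0.865) and Dusp6 (0.860), a MAP kinase phosphatase. To Nr4a3 alone they were Egr3 (0.968), Fosl2 (0.959), Stk40 (0.952), the prohormone convertase Pcsk1 (0.949) and the clock gene Per1 (0.934).

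Single genes of the lists differed in which of the 2 genes they lay nearer to. Bdnf, a growth factor for neurons, was at r = 0.901 with Nr4a3 and 0.154 with Fos, and Homer1, a scaffold of the synapse, at 0.910 and 0.165. Srf, which encodes the factor that binds the CArG box, was at 0.812 with Nr4a3 and 0.425 with Fos. By contrast Ier2 was at 0.828 with Fos and 0.220 with Nr4a3, Egr4 at 0.826 and 0.463, and Jun at 0.586 and -0.186. These genes were picked after their values were seen. Among the heat stress genes, Dnajb1 was at 0.704 with Fos and 0.629 with Nr4a3, and Hsph1 at 0.259 and 0.827, while Hspa8 was at 0.372 and 0.185. In this list of 10, 6 reached a mean of 1 CPM and Hspa1a, Hspa1b, Hspb1 and Socs3 lay at 0.263 to 0.836 CPM, and their part in the spread of the immediate early genes was not tested.

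Neurons held most of the RNA. The deposited cell type labels, kept where at least 50% of a cluster carried the label, gave 173734 neurons, 73156 oligodendrocytes, 8092 microglia and 4793 astrocytes. Markers of neurons, microglia and astrocytes were high under their labels, with Snap25 at 938 CPM in neurons, Csf1r at 795 in microglia and Slc1a3 at 1870 in astrocytes. Neurons carried 83.8% of all UMIs and between 85.3% (Dusp1) and 95.7% (Nr4a3) of those of the 10 genes. Within neurons, tests by class gave the same outcome as over all nuclei, with 0 of 10 genes called in each comparison beside 0.0% of 20601 genes. Nr4a3 was again the lowest estimate under OTV:Malat1, at -1.02 on the log2 scale.

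Neuron clusters differed in their levels, and for each of the 10 genes the highest of 10 clusters was one of the cortical excitatory-like clusters and the lowest the dentate granule-like or the thalamic-like cluster. Clusters were made by the authors from all genes and named here from marker genes, so their order is given as a description with no test. Cluster 16, unnamed and shallow with 3151 nuclei, was left out of the order, and its pooled Fosb was 0.708 CPM on 3 UMIs. The cortical excitatory-like cluster 3, with Pdzrn3 and Rorb as its leading genes, had the highest mean over the 17 libraries for Fos (35.4 ± 18.9 CPM, SD), Fosb (14.2), Junb (65.6), Egr1 (87.4), Nr4a1 (128) and Dusp1 (17.3). The deep-layer cortical excitatory-like cluster 7 had it for Arc (78.4 ± 28.3 CPM), Npas4 (42.0), Nr4a2 (80.2) and Nr4a3 (55.5). The first places were close, since Fos was higher in cluster 3 than in cluster 7 in 14 of 17 libraries, but Junb in 10 of 17, and Npas4 was higher in cluster 7 than in cluster 3 in 10 of 17.

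The lowest cluster was the dentate granule-like cluster 9 for Fos (3.41 CPM), Egr1 (8.06), Npas4 (2.29), Nr4a1 (5.45) and Dusp1 (2.17), and the thalamic-like cluster 12 for Fosb (1.04 CPM), Junb (7.29), Arc (3.11), Nr4a2 (4.82) and Nr4a3 (9.56). The ratio of highest to lowest cluster was widest for Arc (25.2) and Nr4a1 (23.6) and narrowest for Nr4a3 (5.81). For Nr4a3 the 5 excitatory-like clusters 7, 8, 5, 3 and 6 lay between 55.5 and 41.4 CPM, and each was higher than the next in only 9 to 11 of 17 libraries, so their order does not exceed the spread. Cluster 6 was then above cluster 10 in 16 of 17. Nr4a2 differed more among the excitatory clusters, with 33.0 ± 25.1 CPM in cluster 3 against 80.2 ± 45.2 in cluster 7. Among the GABAergic-like clusters, cluster 10, whose leading genes include Rarb, Rgs9, Drd2 and Penk, was above clusters 1 and 4 for Junb (38.8 against 19.6 and 13.9 CPM) and Arc (19.1 against 4.87 and 4.62), higher than cluster 1 in 17 of 17 libraries for Arc. For Fos the 3 were closer, at 12.5, 15.6 and 12.4 CPM. Clusters 1 and 4 had the GABAergic gene Gad2 at 214 and 188 CPM, but also the glutamatergic gene Slc17a6 at 71.5 and 57.9. In the 5 excitatory-like clusters Slc17a6 was at 50.4 CPM or less, so the name of clusters 1 and 4 may not cover all their nuclei. Cluster 6 held 62.0% and cluster 4 44.9% nuclei that the authors called doublets, and the part of these in the levels was not tested.

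**Figure D5:**
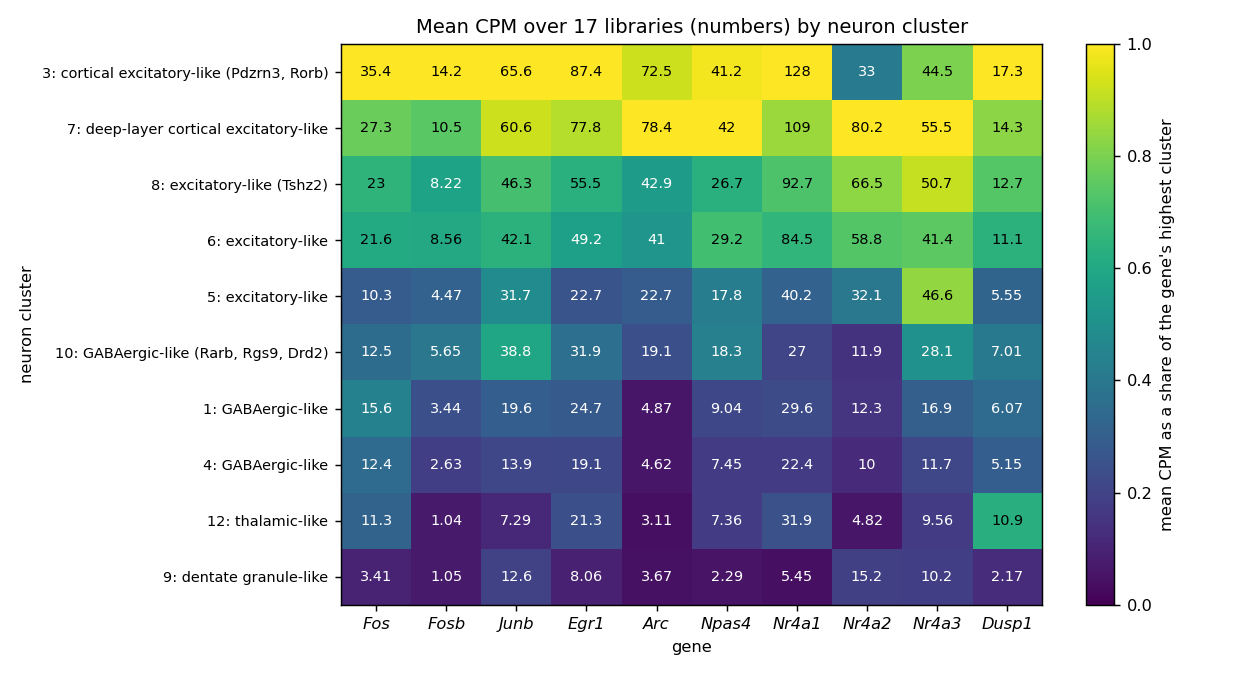
Mean CPM over the 17 libraries for each gene in 10 neuron clusters (printed numbers); colour gives the mean as a share of the gene's highest cluster. Clusters 3 and 7 hold the highest value for each gene, and clusters 9 and 12 the lowest.

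The variation between libraries ran through most clusters. The level of Nr4a3 in a cluster correlated with its level in all other neurons of the same library at a median r of 0.934 over 11 clusters (0.412 to 0.976), that of Nr4a1 at 0.895 and that of Fos at 0.826 (0.162 to 0.938), as a description without a test, since the clusters share libraries. In the tests by cluster 0 members were called in any comparison, beside 0 of 146886 gene tests in each. At an unadjusted p under 0.05 there were 3 of 98 tests of the 10 genes under OTV:Malat1 against saline (2.49% of all gene tests), 8 of 98 under anti-TfR:Malat1 (2.18%), 1 of 98 under Malat1 ASO (1.28%) and 0 of 98 between the carriers (3.25%). Of all 392 estimates of the 10 genes by cluster, 301 were below 0. The clusters share libraries and the genes move together, so these counts are not separate observations. All 12 estimates at an unadjusted p under 0.05 were below 0. They included Nr4a2 in the GABAergic-like cluster 1 under OTV:Malat1 (log2 difference -0.88, SE 0.29, edgeR unadjusted p = 0.00694, adjusted p = 1.00) and under anti-TfR:Malat1 (-0.55, SE 0.24). Fosb, Fos, Junb and Arc in the GABAergic-like cluster 4 under anti-TfR:Malat1 were at -0.85, -0.82, -0.49 and -0.55.

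Within neurons the UMIs of some genes were concentrated in few nuclei. Nuclei with 3 or more UMIs of Nr4a2 made up 1.72% of neurons and held 49.9% of its UMIs, with up to 31 in 1 nucleus. For Nr4a3 1.43% of neurons held 41.2%, with up to 29, and for Npas4 0.885% held 34.0%. Dusp1 was spread more evenly, with 0.0685% of neurons holding 4.67%. The share of neurons with a UMI of at least 1 of the 10 genes ran from 34.8% in Malat1 ASO replicate 3 to 52.8% in Malat1 ASO replicate 1. After each neuron was thinned to 2000 UMIs it ran from 20.2% to 34.5% between the same libraries, and the share with 3 or more of the 10 genes from 1.20% to 7.45%. Without Malat1 ASO replicate 1 the highest of these shares were 52.6%, 33.1% and 6.54%. Saline libraries lay at 27.6%, 33.1%, 28.6% and 31.0% for at least 1 gene, and OTV:Malat1 libraries at 21.8%, 30.5% and 29.3%.

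In single nuclei, genes of both sets were found more often in nuclei with Fos than in nuclei without it in most libraries, although most nuclei with Fos had no UMI of the other gene. In cluster 3, thinned to 2000 UMIs, Junb was found in 27.9% ± 11.7 of nuclei with Fos and in 9.14% ± 3.75 of those without (mean ± SD over libraries, n = 17, higher in 17 of 17). Nr4a3 was found in 13.6% ± 7.60 of nuclei with Fos and 6.36% ± 4.06 of those without, higher in 15 of 17. Around Nr4a3 itself, Nr4a2 was in 16.8% of nuclei with Nr4a3 and 3.79% of those without (16 of 17), and Fos in 12.8% and 5.73% (15 of 17). Cluster 7 showed the same order, with Junb in 32.8% of nuclei with Fos and 8.66% without, and Nr4a3 in 19.0% and 8.01% (12 of 17). These shares describe nuclei of the same libraries and carry no test, and the members share the depth of each nucleus.

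Oligodendrocytes, which wrap axons in myelin, also carried UMIs of these genes. Their level, as a share of that in the neurons of the same library (mean over 17), was 10.1% for Nr4a3, 12.3% for Nr4a1, 15.0% for Fosb, 20.1% for Nr4a2 and 20.5% for Npas4, but 46.0% for Fos, 52.6% for Arc, 54.9% for Junb, 56.5% for Egr1 and 93.6% for Dusp1. The same share was 18.04% for Snap25, 7.36% for Syt1, 5.27% for Meg3 and 3.87% for Rbfox3, which are neuronal genes. For 5 of the 10 genes the mean was thus over 45%, above that of these 4 neuronal genes. Nrgn, another neuronal marker named in the design, was not among the 4. The spread was wide, from 16.5% to 175% for Fos and from 40.97% to 205% for Dusp1, beside 9.32% to 26.2% for Snap25, so that Fos lay within the range of Snap25 in its lowest libraries. After thinning to 500 UMIs, 0.389% of oligodendrocytes and 0.838% of neurons had a Fos UMI, 0.121% and 1.32% a Nr4a3 UMI, and 0.453% and 0.446% a Dusp1 UMI. Without thinning, at median depths of 1263 and 4845 UMIs, these shares were 0.957% and 6.43% for Fos and 0.336% and 9.60% for Nr4a3.

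Fos in oligodendrocytes was highest in anti-TfR:Malat1 replicates 2 and 3 (16.3 and 15.6 CPM), OTV:Malat1 replicate 2 (13.7) and anti-TfR:Malat1 replicate 4 (10.3), and ranged from 1.90 to 9.25 in the other 13. Groups overlapped, as anti-TfR:Malat1 replicate 6 held the lowest value. Fos, Junb and Egr1 were each higher in oligodendrocytes than in neurons in 2 of 17 libraries, Dusp1 in 6 and Arc in 1. Between neurons and oligodendrocytes r over the 17 libraries was -0.283 to 0.676 with a median of 0.347, and -0.239 to 0.750 with deviations from the batch mean. By r, Nr4a3 alone of the 10 genes passed (r = 0.676, permutation p = 0.00309, adjusted over 30 relations to 0.0146). Its rho was 0.672, and its r was 0.525 without the 2 farthest libraries and 0.708 without Malat1 ASO replicate 1. By rho, Nr4a1 passed as well (rho = 0.618, permutation adjusted p = 0.0229), while its r of 0.518 did not (permutation adjusted p = 0.0728). Between oligodendrocytes and microglia 6 of 10 passed by r, with Dusp1 at r = 0.814 and rho = 0.848 (permutation adjusted p = 0.00210, and r = 0.733 without the 2 farthest). Junb passed there by rho only (rho = 0.561, permutation adjusted p = 0.0443). The 6 rest on few microglial UMIs over the 17 libraries. There were 76 of Fos, 5 of Fosb, 227 of Egr1, 72 of Arc, 43 of Npas4 and 61 of Dusp1. Of these, only Egr1 had enough UMIs to be fitted in microglia. Snap25 in oligodendrocytes moved with 5 of the 10 in the same nuclei, at r = 0.769 for Egr1, 0.701 for Nr4a2, 0.642 for Junb, 0.621 for Arc and 0.606 for Dusp1, all with adjusted p of 0.0238 or less by permutation. The part of neuronal RNA in the oligodendrocyte levels was not tested.

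Treatment did not shift the genes past the threshold in these cells either. In oligodendrocytes 9 of the 10 could be tested, and 0 were called in each comparison, beside 0.0214% of 13993 genes in OTV:Malat1 against saline, 0.00715% between the carriers and 0.0% in the other comparisons. Estimates under anti-TfR:Malat1 ran from -0.08 for Npas4 to 0.33 for Nr4a2 (SE 0.38), and Fos was at 0.19 (SE 0.47). In microglia only Junb and Egr1 had enough UMIs and neither was called (0.0% of 8685 genes). In astrocytes only Egr1 did, and it was not called (0.012% of 8326 genes in each comparison of OTV:Malat1 and 0.0% in the others).

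Levels in the rarer types rest on few UMIs, pooled over all libraries, and their intervals cover counting error only. The neuronal gene Snap25 was at 199 CPM in vascular nuclei, 223 in microglia and 235 in perivascular macrophages, beside 938 in neurons. The part of neuronal RNA in these levels was not tested. In vascular nuclei (1203 nuclei, with the endothelial gene Flt1 at 1029 CPM and the pericyte gene Vtn at 653), Dusp1 was at 54.0 CPM (85 UMIs, 95% exact Poisson interval 43.1 to 66.8), against 8.88 in neurons (8.69 to 9.07). Nr4a3 was at 54.6 CPM there (43.7 to 67.5) against 30.6 in neurons, and Fosb was down to 1 UMI. These pooled values hide a wide spread. By group, vascular Nr4a3 was at 98.4 CPM in saline (45 UMIs, 71.8 to 132, libraries from 10.5 to 199), 77.1 under Malat1 ASO (27 UMIs, libraries from 0 to 158) and 26.9 under anti-TfR:Malat1 (14 UMIs, libraries from 0 to 50.5). Under OTV:Malat1 it was 0 of 245709 UMIs in 203 nuclei, which allows a level of up to 12.2 CPM (3 counts over the group), beside 20.6 ± 10.3 CPM in neurons (SD, n = 3, 8.77 to 27.3). Vascular Dusp1 was at 96.2, 45.7, 38.4 and 20.3 CPM in saline, Malat1 ASO, anti-TfR:Malat1 and OTV:Malat1, on 44, 16, 20 and 5 UMIs. In the same order of groups vascular Egr1 was at 70.0, 45.7, 38.4 and 36.6 CPM. Fos and Junb did not follow this order, at 28.4, 28.6, 19.2 and 24.4 CPM and at 41.5, 34.3, 42.3 and 32.6 CPM. Nor did Nr4a1, at 67.8, 65.7, 28.8 and 32.6 CPM, or Nr4a2, at 59.0, 88.6, 26.9 and 4.07 CPM. Arc was at 6.56, 5.71, 5.76 and 12.2 CPM, on 3, 2, 3 and 3 UMIs. These group values were looked at after the pooled ones and carry no test. Microglia, the resident macrophages, had Junb at 44.1 CPM (39.7 to 48.8) and Egr1 at 27.3 (23.9 to 31.1), but Nr4a3 at 2.17 (1.28 to 3.42). In perivascular macrophages (596 nuclei, Mrc1 at 3108 CPM) Egr1 was at 42.0 CPM (27.2 to 62.0) and Nr4a3 at 5.04 (1.04 to 14.7), on 3 UMIs that all came from 1 saline library. Pooled over all groups, Nr4a3 was at 2.46 CPM in oligodendrocytes (2.16 to 2.78) and 4.03 in astrocytes (2.85 to 5.53).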

How the data were processed

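Gene by nucleus UMI counts were deposited as 1 table with metadata per nucleus (library, treatment, batch, cell type label, cluster, doublet call); Cell Ranger 6.0.1, Seurat 4 and build mm10 are named in the submitters' processing notes, with no role. Label transfer scores and doublet scores, deposited as fractions from 0 to 1 per the file headers, and the authors' doublet calls rest on methods that the sources used here do not give. The genome build serves here only for promoter windows, which are RefSeq's on GRCm38.p6.

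Counts were summed per library over all nuclei, per class and per neuron cluster. A class holds nuclei of 1 deposited label in clusters where at least 50% carry it. Cluster 13 was set apart, and clusters 17 and 18, labelled neurons but led by genes of other cells, were left out after their leading genes were seen. Fits needed 20 nuclei per library in at least 15 libraries. Vascular cells and perivascular macrophages missed the class rule and were only described. Genes passing edgeR's filterByExpr were tested with edgeR 4.0.16 (R 4.3.3; TMM, quasi-likelihood, all 17 libraries, Benjamini-Hochberg over all genes tested, threshold 0.05), and 95% intervals used 13 degrees of freedom. On simulated counts the comparison of OTV:Malat1 with saline recovered 67.5% of 200 genes changed 2-fold and 94.5% of those changed 4-fold, among about 21284 genes. The immediate early genes spread more within groups, from 0.378 for Egr1 to 0.978 for Nr4a3, beside a median of 0.142 for the genes ranked. These rates therefore do not tell how often a change in the immediate early genes would be recovered. Correlations used log2(CPM + 1) and 100000 permutations (SciPy 1.17.1). Shares of nuclei were thinned to 500 UMIs, or 2000 for genes found together. Nuclei held at least 500 UMIs as deposited, and doublets were kept.

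The genes and lists were chosen with earlier results of these data known. Besides the 10 genes, the rule named Malat1, the 6 genes with the highest mean r, and from each list the genes past the threshold, up to 4 each way by size, or otherwise the 2 with the highest mean count. Replicates 1 to 4 of saline and Malat1 ASO came from deposited batches 1 to 4, so their numbers mark a shared batch. The deviations of same-numbered libraries from their group means correlated at 0.48, -0.08, 0.71 and 0.66, and the blocked fit changed no call of these genes in that comparison. Alternatives were DESeq2 1.42.0, its size factors in edgeR, fits of 2 groups only, no filter on low counts, a batch or replicate block, doublets left out, nuclei of 1000 or more UMIs, Malat1 left out of library sizes, and each library left out in turn. Some results are not reported here.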

Additional observations from a re-analysis of the deposited data

Results flagged for a closer look

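Saline replicate 3 was far from the other 3 saline libraries in Nr4a1, the nuclear receptor also known as Nur77. Over all nuclei it had 36.2 CPM against 59.5 to 60.2 in the others, and the gap to the nearest of them was 0.970 of the group's whole range, above Dixon's critical value of 0.829 for 4 samples. In its neurons Nr4a1 was at 40.1 CPM against 67.1 to 72.2, with a ratio of 0.840. The same library had the highest Junb of all 17, at 57.6 CPM, and 8.06 CPM of Nr4a3. These were 2 flags among 60 groups of libraries tested, and chance flags about 1 in 20 groups.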

How the results depend on the processing

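No immediate early gene was called in any treatment comparison or between batches under the alternatives run (DESeq2, 2 groups only, size factors, no filter, batch block, doublets left out, nuclei of 1000 or more UMIs, Malat1 left out of library sizes, each library left out), apart from the replicate block by neuron cluster. There, 2 calls appeared for OTV:Malat1 against the antibody carrier: Nr4a3 in cluster 10 (log2 difference -1.38, SE 0.21, edgeR adjusted p = 0.0216, beside -0.96 and 1.00 without the block; 0.0158% of 12652 genes called) and Nr4a2 in cluster 3 (-1.60, SE 0.30, 0.0246, beside -0.75 and 0.993; 0.215% of 13977). Replicate numbers 1 to 3 of the antibody carrier and saline share a batch and number 4 does not, those of OTV:Malat1 fall in other batches, and these numbers were not taken to pair the libraries (correlations 0.42, 0.12, 0.55 and -0.42 for the antibody carrier with saline, 0.10, 0.60 and -0.44 for OTV:Malat1 with saline, and 0.05, -0.01 and -0.44 between the carriers), and the block changed no other call of these genes. Genes with a mean r over 0.5 numbered 341 with deviations from the batch mean, against 111. Of the 15 pairs between the sets, 0 to 1 passed with each library left out. The cause of these changes was not tested.

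Estimates near 0 changed sign, all without passing the test. Under the replicate block, log2 differences from saline under the antibody carrier became 0.15 for Nr4a1, 0.34 for Nr4a2 and 0.25 for Nr4a3, and those between the carriers 0.048 for Junb, 0.10 for Egr1 and -0.11 for Dusp1. With batch as a block, both Nr4a1 and Nr4a2 were at 0.011 under the antibody carrier and Egr1 at -0.014 under Malat1 ASO. Without doublets Egr1 was at -0.015 there, and with nuclei of 1000 or more UMIs Junb was at 0.0035 between the carriers. With each library left out in turn, differences from saline under OTV:Malat1 ranged from -0.63 to 0.14 for Fos, -0.31 to 0.052 for Egr1, -0.42 to 0.091 for Npas4 and -0.42 to 0.031 for Dusp1. Under the antibody carrier they ranged from -0.25 to 0.062 for Egr1, -0.20 to 0.055 for Nr4a1, -0.23 to 0.17 for Nr4a2 and -0.62 to 0.069 for Nr4a3. Under Malat1 ASO they ranged from -0.42 to 0.14 for Fos, -0.75 to 0.053 for Fosb, -0.46 to 0.10 for Junb, -0.17 to 0.14 for Egr1, -0.35 to 0.015 for Arc, -0.35 to 0.078 for Npas4, -0.35 to 0.045 for Nr4a1 and -0.43 to 0.0037 for Nr4a2. Between the carriers they ranged from -0.36 to 0.41 for Fos, -0.51 to 0.15 for Fosb, -0.40 to 0.18 for Junb, -0.17 to 0.12 for Egr1, -0.20 to 0.32 for Npas4 and -0.18 to 0.27 for Dusp1.

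The sums over all nuclei rest on 118 UMIs or more for each gene in each library, the fewest being those of Fosb. The number of libraries, 3 to 6 per group, limits the precision of the comparisons. In astrocytes and microglia only 1 and 2 of the 10 genes had enough UMIs to be tested, so differences there were mostly not detectable at this depth.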
